A study of Mus musculus with 12 samples.

Results

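The comparison described here set livers of female mice against livers of male mice at 1 time of day, ZT10, in 6 of the 12 libraries of the series. ZT10 is zeitgeber time 10, that is 10 hours after lights on. All animals were wild-type (WT) 129S6/SvEv mice. Livers were digested by collagenase perfusion, hepatocytes were enriched by centrifugation, and the cells were kept frozen until 10x Genomics Chromium v3 libraries were prepared from them. There were 3 female and 3 male libraries. The labels give the sex as female or male and say nothing of karyotype, age, litter or whether a library came from 1 animal. The p-values therefore weigh a difference against the spread between libraries, which is not known to be that between animals.

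Sex differences in gene expression are a known property of the rodent liver. They are tied to the pattern of growth hormone release from the pituitary, which is pulsatile in males and more continuous in females and acts on hepatocytes through the transcription factor STAT5. Among the gene families known for it are cytochrome P450 enzymes, sulfotransferases and, in mice, major urinary proteins. The deposited table identifies its features by number alone, without gene names, so none of these families could be looked up. Neither could liver or hepatocyte markers, and the labelled tissue was not checked against them.

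The members were the features with UMIs in both sexes. A unique molecular identifier (UMI) marks 1 captured transcript, so counts are numbers of molecules. UMIs of all cells were summed per library, and the libraries served as replicates. Of the 18326 features in the table, 17668 had a UMI in at least 1 of the 6 libraries, and 16297 of these had UMIs in both sexes. Another 651 were seen in females only and 720 in males only, and these were left out so that graded expression is described. Of those left out, 14 had at least 10 UMIs in each female library and none in males, and 6 showed the reverse. Without names they could not be used as a check of the sex labels. Of the 16297, 12126 passed the filter on low counts and are described below.

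Together the 6 libraries comprised 16848 cells with 54150688 UMIs. Totals per library ran from 2284202 UMIs in male replicate 2 to 14654630 in male replicate 1, and median UMIs per cell from 2213 to 3734. Of 7 library measures, none passed the threshold between the sexes in exact two-sided permutation tests with 3 libraries per group. The smallest p was 0.6, the adjusted p was 1 for each, and 0.1 is the smallest p that 3 against 3 can give. The libraries shared few cell barcodes, 34 of 16814 distinct ones. A pair of libraries stood apart. In male replicate 2, 88 of its 494 cells came from a second library part with a median intronic fraction of 0.496, against 0.303 in the 406 cells of the first part. In female replicate 1, 53.1% of the cells fell into 1 expression cluster that held between 1.62% and 6.86% of the cells of the other 5 libraries, and mitochondrial features held 7.01% of its UMIs, against 12.3% to 17.9% in the others.

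Between the sexes, 234 of the 12126 features differed, which is 1.93% of those tested (edgeR quasi-likelihood test, adjusted p under 0.05, no minimum fold). The female side was the higher one in 120 (0.990%), and the male side in 114 (0.940%). In each of the 234, the 3 female libraries did not overlap the 3 male libraries. Among all features tested, 15.0% showed no overlap, 1815 in number. The 234 were chosen by a test on these same libraries, so their separation is a description. Without male replicate 1 the test called 138 features, and without male replicate 3 it called 140, and DESeq2 on all 6 libraries called 363. The features higher in females numbered 59 and 62 in the first 2 of these, and 76 without female replicate 2. With at least 10 UMIs required in each library before testing, 117 were called. The count was 188 without female replicate 1 and 189 without male replicate 2, the libraries that stood apart in their cells. A set of 105 features, of which 59 were higher in males, was called again whichever of the 6 libraries was left out.

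The differences called were large ones, and the test seldom calls small ones. In simulated counts it called 0 of 67 features changed 1.5-fold, 8 of 67 changed 2-fold and 50 of 66 changed 4-fold. Of its 63 calls there in all, 5 fell on features that had not been changed. Of the 234 features, 223 changed by 2-fold or more and 134 by 4-fold or more. Where the lower sex has few UMIs a fitted fold is unsteady, and 9 of the called features had 3 UMIs or fewer over the 3 libraries of the lower sex together. Sizes are therefore also given for the 144 called features with at least 10 UMIs in every library. Their median size of change was 1.74 on the log2 scale, with a range from 0.80 to 6.45. For the 67 features higher in females it was 1.49, and for the 77 higher in males 1.87. Over the 9389 tested features with that many UMIs, the median size was 0.18, and 2.67% had a change of at least 2-fold. In all, 566 tested features had a change of at least 2-fold, of which 223 were called, so that most fitted changes of this size did not pass the test. At an unadjusted p under 0.05 there were 1161 features.

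**Figure D1:**
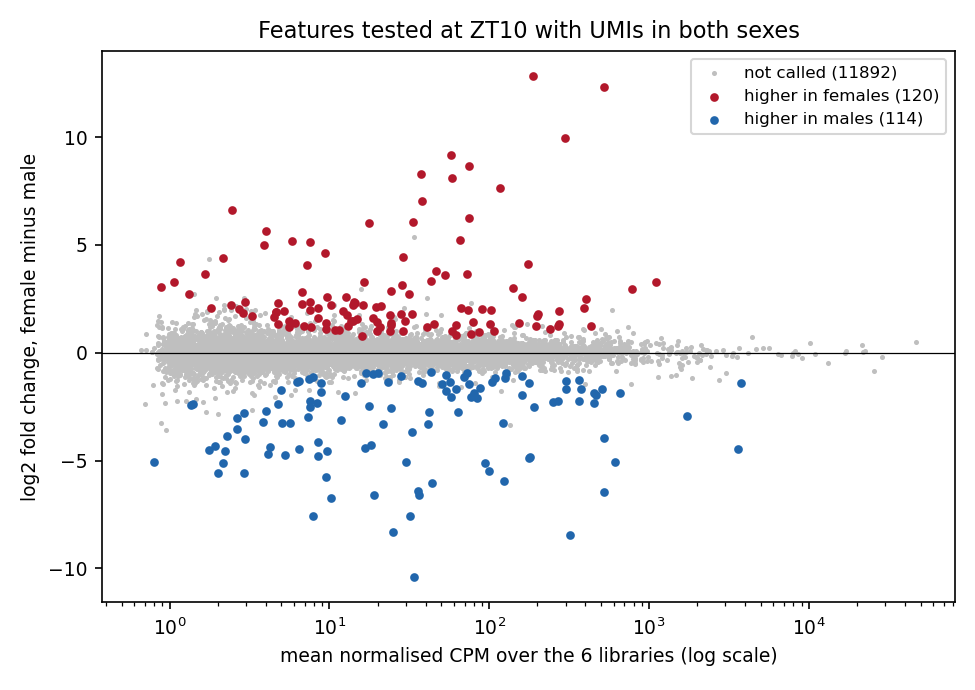
Each point is 1 of the 12126 tested features, placed by its mean normalised CPM over the 6 ZT10 libraries (log axis) and its fitted log2 fold change, female minus male. Red marks the 120 features called higher in females, blue the 114 called higher in males and grey the features not called. Called features lie at all levels of abundance.

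Called features were found at every level of abundance. Levels are given as counts per 1e6 UMIs, scaled by edgeR's TMM factors and written CPM, and since each feature is counted by UMIs they are not per length. Under 10 CPM, 78 of 4734 tested features were called (1.65%), 39 in each direction. Between 10 and 100 CPM, 101 of 6007 were called (1.68%), of which 58 were higher in females. Between 100 and 1000 CPM, 51 of 1288 were called (3.96%), 29 of them higher in males. At 1000 CPM and more, 4 of 97 were called (4.12%), 3 of them higher in males.

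Called features ranged from near absence to a high level in the lower sex. There, 95 of the 234 had a mean of at least 10 CPM, 81 lay between 1 and 10 CPM, and 58 lay under 1 CPM. The filter on low counts can keep a feature through its higher sex alone, so these low levels are a description. The lower sex stood under 1 CPM in 26 of the 120 features higher in females and in 32 of the 114 higher in males.

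A pair of abundant features shows the graded kind. Ranked by the mean over all 6 libraries, the most abundant called feature higher in females had 1856, 1552 and 2624 CPM in female replicates 1 to 3, and 207, 106 and 303 CPM in male replicates 1 to 3. The fitted log2 difference was 3.29 ± 0.40 (SE), with an edgeR adjusted p of 0.00182. By the same ranking, the most abundant called feature higher in males had 6202, 4785 and 5350 CPM in the male libraries and 2612, 1658 and 1909 CPM in the female libraries. Its log2 fold change, female minus male, was -1.40 ± 0.26 (SE, edgeR adjusted p = 0.0225). Both were singled out after their values were seen. In each case all 3 libraries of the lower sex held over 100 CPM, and the groups did not overlap. In sums over all cells, fewer cells of a type and less RNA per cell cannot be told apart.

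By a rule on size and depth, 4 features are given by number. They had, 2 in each direction, the largest fold changes among features with an adjusted p under 0.05, at least 10 UMIs in each library, at least 20 CPM in the higher sex and no overlap. The rule left 124 features to choose from.

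Feature 4005 was higher in females. It stood at 52.3, 118 and 268 CPM in female replicates 1 to 3, and at 1.84, 4.46 and 1.09 CPM in male replicates 1 to 3. The females thus spread over a 5.12-fold range, with replicate 1 lowest, while the lowest female still lay far above the highest male. The fitted log2 difference was 6.24 ± 0.71 (SE), with an edgeR adjusted p of 0.00115. Only 10 UMIs each stand behind the values of male replicates 2 and 3.

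Feature 2816 was also higher in females. It stood at 499, 148 and 348 CPM in the female libraries and at 19.2, 24.5 and 14.6 CPM in the male libraries. Here female replicate 2 was lowest, and all 3 males lay close together. This gave a log2 difference of 4.12 ± 0.45 (SE) at an edgeR adjusted p of 0.000805.

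Feature 2819 was higher in males. It stood at 1689, 343 and 1067 CPM in male replicates 1 to 3 and at 13, 7.78 and 14.5 CPM in the female libraries. Male replicate 2, the smallest library, was the lowest male. The log2 fold change, female minus male, was -6.45 ± 0.61 (SE, edgeR adjusted p = 0.000328).

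Feature 2805 was higher in males with little spread. It stood at 248, 238 and 245 CPM in the male libraries and at 4.44, 3.09 and 4.04 CPM in the female libraries. This gave a log2 difference of -5.96 ± 0.24 (SE) at an edgeR adjusted p of 1.03e-06. It had the smallest error of the 4 features.

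**Figure D2:**
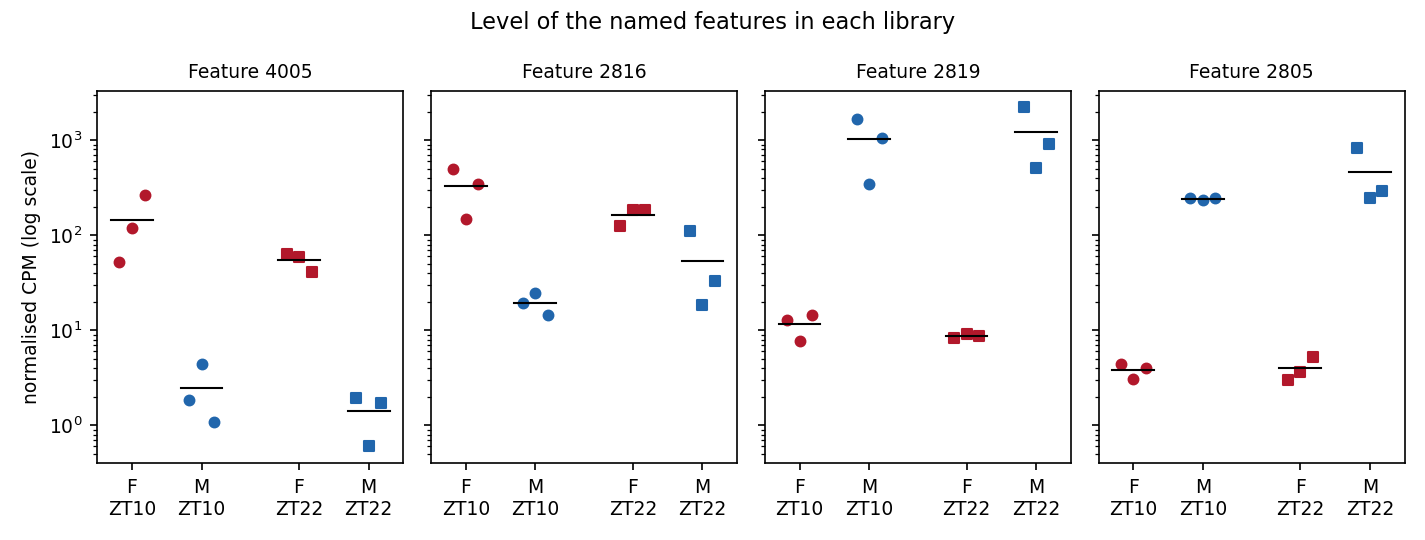
Normalised CPM (log axis) of the 4 numbered features in each library, with ZT10 libraries as circles, ZT22 libraries as squares, females (F) in red and males (M) in blue. Horizontal lines are means of 3 libraries. At ZT10 the sexes do not overlap for any of the 4, which was a condition of their choice. No such condition was set at ZT22, where a male library at 111 CPM comes near the lowest female, at 124 CPM, for feature 2816.

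Libraries of the same sex also differed from each other in the called features. Over the features with at least 10 UMIs in each library, the ratio of the highest to the lowest library had a median of 1.40 in females for those higher in females and of 1.47 in males for those higher in males. In the lower sex it was 1.60 in females for those higher in males, and 1.56 in males for those higher in females. For all 9389 such features tested, it was 1.32 in females and 1.43 in males, below each of these values for the same sex. The test that chose the features weighs this spread, so the ratios are a description. The highest library varied from feature to feature. Female replicates 1, 2 and 3 were highest for 21, 18 and 28 of the 67. Among males, replicates 1, 2 and 3 were highest for 19, 27 and 31 of the 77.

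Summed over each set, the called features made up a small share of the RNA. The 120 features higher in females held 1.52%, 1.39% and 1.67% of all UMIs in female replicates 1 to 3, and 0.333%, 0.278% and 0.279% in male replicates 1 to 3. The 114 features higher in males held 3.38%, 3.07% and 3.39% in the male libraries and 0.723%, 0.569% and 0.623% in the female libraries. These sets were chosen by the same libraries, so that their separation is a description. In males, 5 features made up 54.9% of the set's UMIs and a single one, ranked by UMIs in males, 23.8%. In females, 5 features made up 37.9% of their set and a single one 13.3%.

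**Figure D3:**
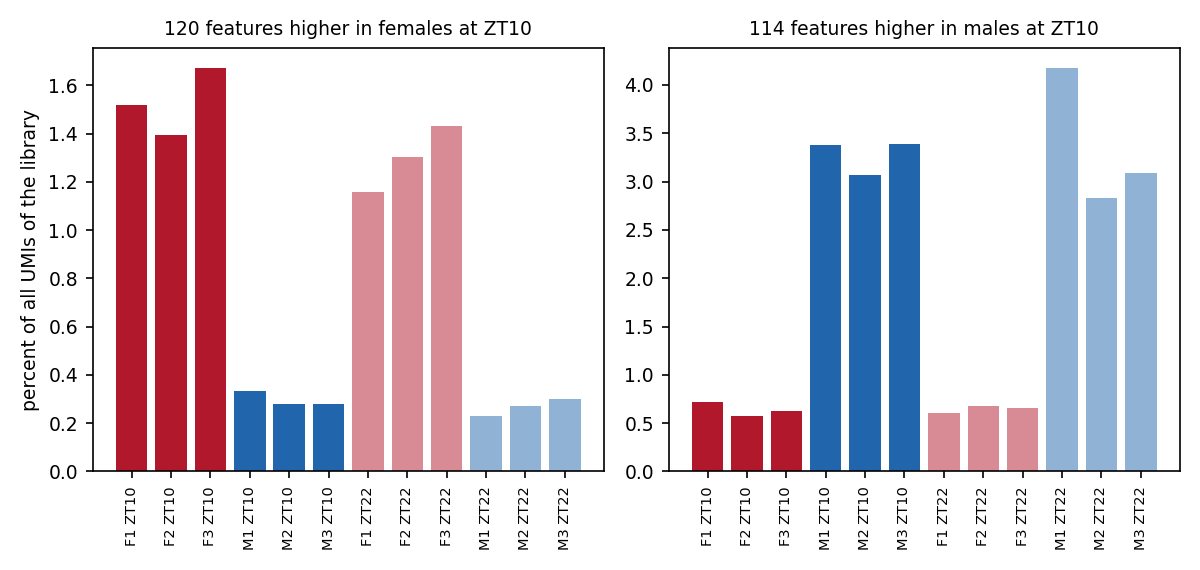
Bars give the percent of all UMIs of a library held by the 120 features called higher in females (left) and the 114 called higher in males (right) at ZT10, with female (F) libraries in red, male (M) libraries in blue and the ZT22 libraries, which had no part in the choice, in paler colours. The left share is 1.16% to 1.43% in female and 0.231% to 0.302% in male ZT22 libraries, and the right share is 0.608% to 0.676% and 2.83% to 4.18%.

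Called features often stood next to each other in the table. The files do not say what the order of the features stands for. Of the 234 called features, 66 had a called one directly before or after them. Counted over both sides of every called feature, 80 of 374 tested neighbours were called (21.4%). A neighbour of 2 called features counts for each in this share. Of all features tested, 1.93% were called. There were 40 pairs of adjacent called features, and in 36 of them both members were higher in the same sex. When called features at most 5 places apart were joined, 6 stretches held 4 or more of them, 40 called features in all. In 5 of these 6 stretches, both directions occurred.

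The largest stretch spanned 24 places and holds features 2805, 2816 and 2819. Of its 21 tested features, 17 were called, 16 of them higher in males and only feature 2816 higher in females. The median log2 fold change, female minus male, of those 16 was -4.41. Together they held 1.11%, 0.510% and 1.13% of the UMIs in male replicates 1 to 3, and 0.0312%, 0.0370% and 0.0425% in female replicates 1 to 3. Male replicate 2 was again the lowest male. Only 7 of the 17 had at least 10 UMIs in each library. The next stretches were shorter, with 5 of 8, 5 of 5 and 5 of 6 tested features called. The first of these had 3 features higher in females and 2 higher in males, and the other two had 4 and 1 each. Where neighbouring features have similar sequences, counting can split or share their reads, and the sources used here do not say how such reads were handled.

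**Figure D4:**
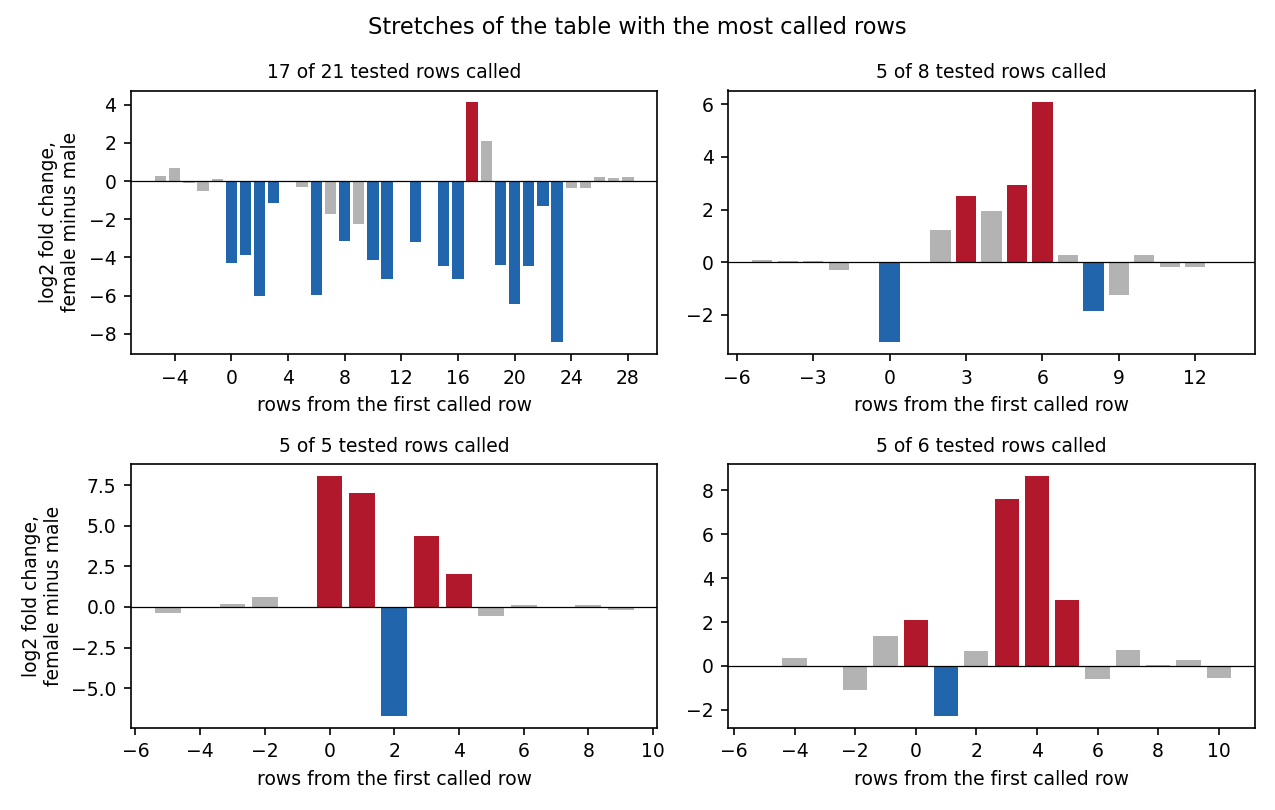
Bars give the log2 fold change, female minus male, of tested features in the 4 stretches of the table with the most called features. Tested features a few places before and after each stretch are drawn too. Each bar is set at its place counted from the first called feature of the stretch. Red bars were called higher in females, blue bars called higher in males and grey bars were not called. Features of opposite direction lie within a few places of each other in each panel, and 16 of the 17 called features of the first panel are higher in males.

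The called features that could be tested kept their direction in shallow and in deep cells, while fewer were called in the shallow ones. The cells were split into 3 depth classes at 2277 and 3468 UMIs, and the test was run on each. Of the 234 features, 178, 203 and 214 were tested in the shallow, middle and deep cells, and all of those kept their direction. The median size of change was 2.06, 2.14 and 2.13 on the log2 scale, and 103, 142 and 179 of them were called there too. The same test called 1.17%, 1.68% and 1.93% of all features tested in these classes. Since the features were chosen in the same libraries, their direction here is a description.

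Expression clusters gave a similar picture. They hold the same cells in which the features were chosen, so the directions here are again a description. Clustering of the 16848 cells gave 5 clusters of 14685 cells, called the main population here, and 3 clusters of 2163 cells that were set apart by leading features of high fold over the other cells. Without gene names no cluster can be given a cell type. A test on the main population alone called 262 features, which included 228 of the 234. In clusters 1, 2, 3, 4 and 5 of the main population, 190, 174, 168, 111 and 168 of the 234 features could be tested, and every one had the same direction as in all cells. Cluster 4, which drew 78.4% of its cells from female replicate 1, rests on 8 cells of male replicate 2. The test called 2.60%, 2.02%, 1.91%, 2.02% and 1.93% of all features in these 5 clusters. In clusters 6, 7 and 8, those set apart, 80, 90 and 52 of the 234 features could be tested, and 76, 90 and 50 had the direction seen in all cells. The test called 1.43%, 1.90% and 2.53% of all features there, and male replicate 2 gave them 19, 22 and 14 cells. The share of cells set apart was 12% ± 6.61 over the female libraries and 13.3% ± 2.04 over the male libraries (SD, n = 3 each). Of their 30 leading features, 10 for each cluster, 0 were called between the sexes, a number too small to be read against the 1.93% of all features. Their log2 fold changes, female minus male, ran from -0.78 to 0.00 in cluster 6, with a median of -0.53, from 0.05 to 0.93 in cluster 7, with a median of 0.30, and from -0.43 to 0.32 in cluster 8, with a median of -0.07. For the 3 clusters, the leading features' summed level ran from 132 to 234, 105 to 403 and 23.6 to 139 per 1e6 UMIs in females, and from 204 to 332, 171 to 337 and 55.3 to 120 in males.

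The numbered features were also looked at in single cells, with each cell thinned to 1000 UMIs and 221 shallower cells left out. Feature 2819 had a UMI in 60.7% of the thinned male cells of the main population and in 58.7% of those in the clusters set apart. In females the shares were 1.14% and 1.38%. The unthinned shares were 83.8% and 79.2% in males, at median depths of 3253.5 and 2357 UMIs, and 3.56% and 2.52% in females. Feature 2805 likewise had a UMI in 23.1% and 21.8% of the thinned male cells, and feature 2816 in 30.2% and 28.8% of the thinned female cells. The pooled shares of these 3 features thus lay close together, while single libraries varied. Over the male libraries, feature 2819 ran from 24.7% to 74.9% in the main population and from 25.5% to 77.0% in the clusters set apart. Feature 2805 ran from 22.2% to 23.9% and from 14.4% to 27.4% in the males, and feature 2816 from 14.8% to 37.9% and from 11.9% to 46.7% in the females. In droplet libraries free RNA can place UMIs in cells that do not express a feature, and its part in these shares was not tested.

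Feature 4005 had less alike shares. It had a UMI in 13.4% of the thinned female cells of the main population, 1075 of 8006, and in 4.25% of those set apart, 43 of 1011. Among females the share in the main population ran from 5.02% to 24.2%. In males it was 0.0613%, or 4 of 6524 cells, in the main population and 1.10%, or 12 of 1086 cells, in the clusters set apart. The unthinned shares were 30.8% and 8.87% in females, at median depths of 2738 and 1763 UMIs, and 0.228% and 2.84% in males. In the main population alone its log2 fold change was 7.78, against 6.24 in all cells. Of the clusters set apart, only in cluster 6 did feature 4005 pass the filter on low counts. There its log2 fold change was 0.68, with an edgeR adjusted p of 0.934.

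Preparation could be held constant in part. The cell barcodes in the table start with a code that several libraries share, taken here to mark a preparation, which the labels do not state. At ZT10, 2 codes hold both sexes, with 2 female and 1 male library in the first and 1 of each in the second. The code of male replicate 2 holds no female library at this time. A fit with the code as a covariate called 230 features, which included 187 of the 234. The log2 fold change within the codes was 5.26 and 7.68 for feature 4005, 3.81 and 4.55 for feature 2816, -7.36 and -6.18 for feature 2819, and -5.98 and -5.85 for feature 2805. These values are differences of mean log2 CPM with a prior count of 2, without a test.

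The 13 features that make up the deposited mitochondrial percent had log2 fold changes, female minus male, between -0.35 and 0.10. Of these 13, 0 were called, which at 1.93% of all features called is no result about them. Their summed share of UMIs was 7.01%, 17.9% and 12.6% in female replicates 1 to 3 and 13.1%, 12.9% and 12.3% in the male libraries, so the female libraries spread on both sides of the male ones. A test on the cells under the median mitochondrial percent of 9.15 called 157 features, which included 148 of the 234.

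The 6 libraries at ZT22, of the same strain and genotype, share no library with those above and were tested on their own. Of the 234 features, 227 could be tested there, and 222 had the same direction. The test at ZT22 called 157 of the 227 in the same direction, of which 81 were higher in males, and 0 in the opposite direction. Its background was 3.37% of 11671 features, made up of 1.96% higher in females and 1.41% in males. The 3 female and 3 male libraries at ZT22 did not overlap, in the ZT10 direction, for 206 of the 227, against 25.7% of all features tested at ZT22 in either direction. Male ZT22 replicate 2 stands apart in its intronic fraction, with a median of 0.510. Leaving it out, an alternative added after seeing the data, gave 191 of 229 features called, with a background of 5.95%, or 712 of 11957. Over the features tested at both times, the median log2 fold change of those higher in females was 1.99 at ZT10 and 1.81 at ZT22. For those higher in males the median size was 2.51 at ZT10, and the median change at ZT22 was -2.47.

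**Figure D5:**
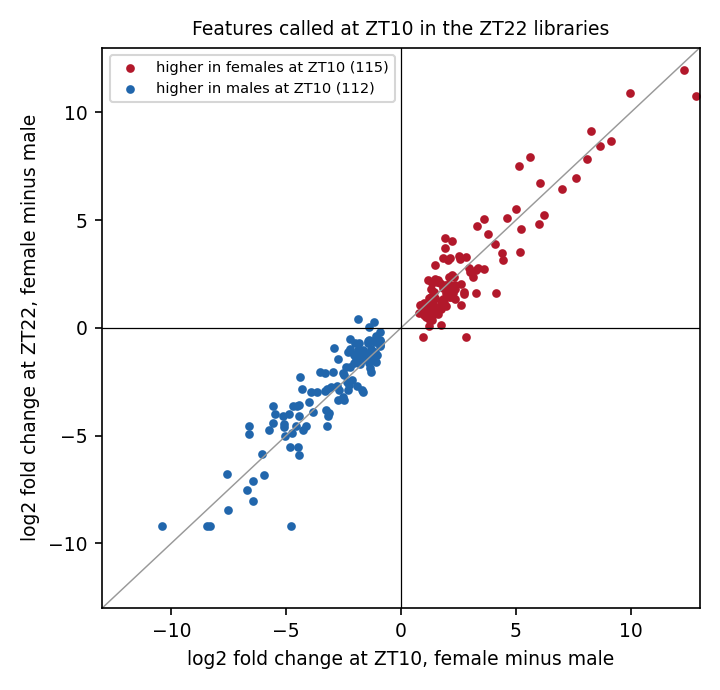
Each point is 1 of the 227 features called at ZT10 and tested at ZT22, with its log2 fold change, female minus male, at ZT10 on the horizontal and at ZT22 on the vertical axis. Colours give the sex with the higher level at ZT10, red for females and blue for males, and the grey line marks equal change. Of the 227 points, 222 lie on the same side of 0 at both times.

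Of the numbered features, 3 were called at ZT22 too. Feature 4005 stood at 54.6 ± 12.3 CPM in females and 1.42 ± 0.72 in males at ZT22 (SD, n = 3 each), with an edgeR adjusted p of 4.92e-05. Feature 2819 stood at 8.72 ± 0.44 CPM in females and 1214 ± 892 in males, with an edgeR adjusted p of 0.000202. Feature 2805 stood at 3.97 ± 1.14 and 459 ± 323 CPM, with an edgeR adjusted p of 0.000186. Feature 2816 stood at 164 ± 34.4 and 54.3 ± 49.6 CPM, with a log2 fold change of 1.60 ± 0.56 (SE) and an edgeR adjusted p of 0.201. Male ZT22 replicate 1 alone stood at 111 CPM, and the other two males at 18.7 and 33.3 CPM. The difference between the times was tested as an interaction of sex and time in all 12 libraries. It was not called for feature 2816, with a log2 difference of -2.53 and an edgeR adjusted p of 0.772, nor for any of the 234 features, whose smallest adjusted p was 0.405. At an unadjusted p under 0.05 there were 39 of the 234, a larger share than the 5.91% of all features. The 234 were chosen on the ZT10 libraries, which enter this test too, so that count is a description. Over all 12474 features tested with UMIs in both sexes at ZT10, edgeR called 0 (0.00%), with 737 at an unadjusted p under 0.05. DESeq2 called 7, counted over all features in the fit, including any without UMIs in both sexes at ZT10.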

How the data were processed

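The members, tests and feature rule were chosen with earlier results of these data known. Per the labels' protocols, cells were captured with 10x Genomics Chromium v3. Per the submitters' processing notes, Cell Ranger 6.1.2, Seurat and the mm10 build were used, with no role stated. The deposited table holds raw UMI counts for 31003 cells and 18326 numbered features. The column sums equalled the deposited metadata counts in all 31003 cells. Per the file headers, the metadata also give the intronic fraction and the mitochondrial and caspase percent of each cell. The denominator of the fraction and the cell filters are not given in the sources used here. Cells were assigned to libraries by the sample title in the metadata.

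UMIs were summed over all cells of a library. The 6 sums at ZT10 were tested with edgeR 4.0.16 (TMM, filterByExpr by group, quasi-likelihood test) without covariates. Benjamini-Hochberg adjustment ran over 12150 features, and the threshold was 0.05. The 24 of these with UMIs in only 1 sex, all called, were then left out. With such features left out before the fit instead, 221 were called, 111 higher in females and 110 higher in males. Features that were not tested held 0.173% of the UMIs. The SE of a log2 fold change was derived from the test's F value. The features given by number are the 2 with the largest change in each direction among those with an adjusted p under 0.05, 10 UMIs in each library, 20 CPM in the higher sex and no overlap. The larger set of names and the fixed gene lists need gene names and were not used. The test was run first on simulated counts.

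Cells were clustered with scanpy 1.11.5 and igraph 0.11.9 (2000 variable features, values centred within libraries, 8 principal components, 15 neighbours, resolution 0.3). Clusters whose 10 leading features had a median fold above 8 over other cells were set apart. No doublet caller was run and no cell was removed.

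Replicate numbers come from the labels. The deviations from the group means of female and male libraries with the same number correlated at r = 0.204, 0.229 and 0.355 over 7406 features, which are not independent replicates. Libraries with unlike numbers correlated at -0.270 to 0.019. Deviations within a sex share a mean, so these values depend on each other. Female and male replicate 2 carry different preparation codes. Whether the numbers mark pairs is thus not settled. The reported test left the libraries unpaired, and a replicate block was an alternative. The alternatives tried were DESeq2 1.42.0, limma-voom 3.58.1, other scalings and filters, blocks, thinning, subsets of cells and leaving out each library.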

Additional observations from a re-analysis of the deposited data

How the results depend on the processing

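Of 18 other settings, 16 gave a count of called features within 1.5 times of 234, between 157 and 293. The exceptions were DESeq2 with 363 (187 higher in females, 176 higher in males), for which the cause was not tested, and the requirement of 10 UMIs in each library with 117 (53 and 64, and 114 at 2-fold or more), which tests 9389 features. In cells under the median mitochondrial percent, 78 features were higher in females; the cause was not tested. The replicate block gave 293 features, which included 221 of the 234, and moved no call of a numbered feature. Leaving out each library in turn gave 138 to 241 called features, 59 to 123 higher in females, 78 to 118 higher in males and 138 to 239 changed at least 2-fold. In no setting did a called feature have the sign opposite to that in the reported test. In 96 of 96 refits the 4 numbered features stayed called in their direction (edgeR or other tool, adjusted p at most 0.0152). These 4 were chosen for their large change in the libraries that the refits reuse, so this is a description. Of the 234 features, 60 were called in all 24 settings.

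No library measure passed the threshold, and the sign of most female minus male differences turned when a library was left out. They ran from -534 to 1194 for cells, -2833730 to 3351480 for total UMIs, -162 to 102 for median features per cell, -0.0420 to 0.0048 for the median intronic fraction, -3.76 to 0.46 for the median mitochondrial percent and -4.44 to 2.14 percentage points for the share of cells set apart. Tested in pairs by replicate number, the smallest exact permutation p was 0.25, the smallest that 3 pairs can give, for the median intronic fraction. It was lower in the female of all 3 pairs. Depth limits what is seen for features of low level, where few UMIs stand behind the lower sex.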
